A study of Homo sapiens with 5 samples.

Results

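The 41 genes described here control or carry out the synthesis of cholesterol and fatty acids, and were chosen by name from the 43714 gene rows of the count tables. They comprise 5 genes that control sterol synthesis, 17 enzymes of the sterol branch, 16 genes of the fatty acid branch, and 3 genes of sterol transport and efflux. Counts were measured in Rh41, an established human line of alveolar rhabdomyosarcoma with a PAX3-FOXO1 fusion, grown in RPMI with 10% bovine serum. The control group comprised 2 libraries (replicates 1 and 3) from cells transfected with scrambled siRNA. The other group comprised 3 libraries (replicates 1, 2 and 3) from cells transfected with an siRNA against H3F3A, one of the genes that encode the histone variant H3.3. RNA was collected after 48 hours in both groups, and both received the lipid reagent Lipofectamine RNAiMAX. All 5 libraries came from a single cell line, and the labels do not say whether replicates were separate cultures. The p-values therefore describe the spread of these 5 libraries, which may be technical.

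Cholesterol is built from acetyl-CoA through mevalonate, farnesyl pyrophosphate, squalene and lanosterol, and fatty acids are built from the same acetyl-CoA by carboxylation, chain synthesis, elongation and desaturation. Most of these enzymes are transcribed under the SREBP factors, which are held in the endoplasmic reticulum by INSIG proteins when sterol is plentiful and escorted to the Golgi by SCAP when it is scarce. INSIG1 is itself an SREBP target, so its transcript is commonly read together with those of the enzymes.

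The libraries held 28493573 to 30705963 counts assigned to genes, and 15859 genes passed the filter on low counts. H3F3A stood at 294 and 269 CPM (counts per 1000000 assigned to genes) in the scrambled libraries and at 9.38, 10.5 and 8.54 CPM after H3F3A siRNA, a 29.7-fold fall (edgeR adjusted p = 9.04e-21). Of 5 rhabdomyosarcoma markers, all 5 reached a mean of 1 CPM, whereas none of 5 adipocyte markers and none of 4 hepatocyte markers, from other lipid-making cells, did. None of 3 epithelial markers did either. CD68, of 3 immune markers, and VWF, of 3 endothelial markers, reached it, with means of 3.6 and 1.78 CPM in the scrambled libraries. Scrambled replicate 1 stood apart in GC content. Per 10 points of gene GC content, the slope of its log2 CPM against the library average was 0.145, beside -0.00646 in scrambled replicate 3 and -0.0397 to -0.059 after H3F3A siRNA. The members whose values rest on this library are given without it, and with GC correction, after the branches.

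Of the 39 members tested, none was called lower or higher after H3F3A siRNA by edgeR at an adjusted p under 0.05 over all genes, where 2.69% of all genes were called lower and 0.504% higher. ABCA1 and ABCG1 did not pass the filter. The adjusted p nearest the threshold was 0.0541, for MVD. At an unadjusted p under 0.05, 5 members (12.8%) were lower, namely SREBF2, SCAP, MVK, MVD and FASN, against 10.9% of all genes, and none was higher, against 5.91%. In DESeq2, MVD and FASN were called lower (adjusted p = 0.0485 and 0.0414), where 4.41% of genes with an adjusted p were. In edgeR MVD was also called lower with RLE normalization, where 2.9% of all genes were, and MVD and FASN without a filter on low counts, where 2.26% were. The groups did not overlap in 8 members that were lower (20.5%, against 17.1% of all genes) and in 5 that were higher (12.8%, against 16%). In bulk RNA, a change in a transcript per cell and a change in the share of cells that make it cannot be told apart.

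The log2 fold changes of members were small. They ran from -0.31 to 0.21 with a median of 0.02, beside a median of 0.01 over all genes tested, and the median absolute value was 0.10 in members and 0.13 in all genes. The 95% interval of the fold change lay within 1.25-fold of no change in 23 of the 39 tested members (58.97%, against 41.04% of all genes). It lay within 1.5-fold in 35 (89.74%, against 70.71%). The 4 members with wider intervals were FDFT1, CYP51A1, TM7SF2 and ACACA, which had at most 139 counts in any library. The medians by branch were -0.16 for the 5 control genes, 0.07 for the sterol branch and 0.01 for the fatty acid branch.

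**Figure D1:**
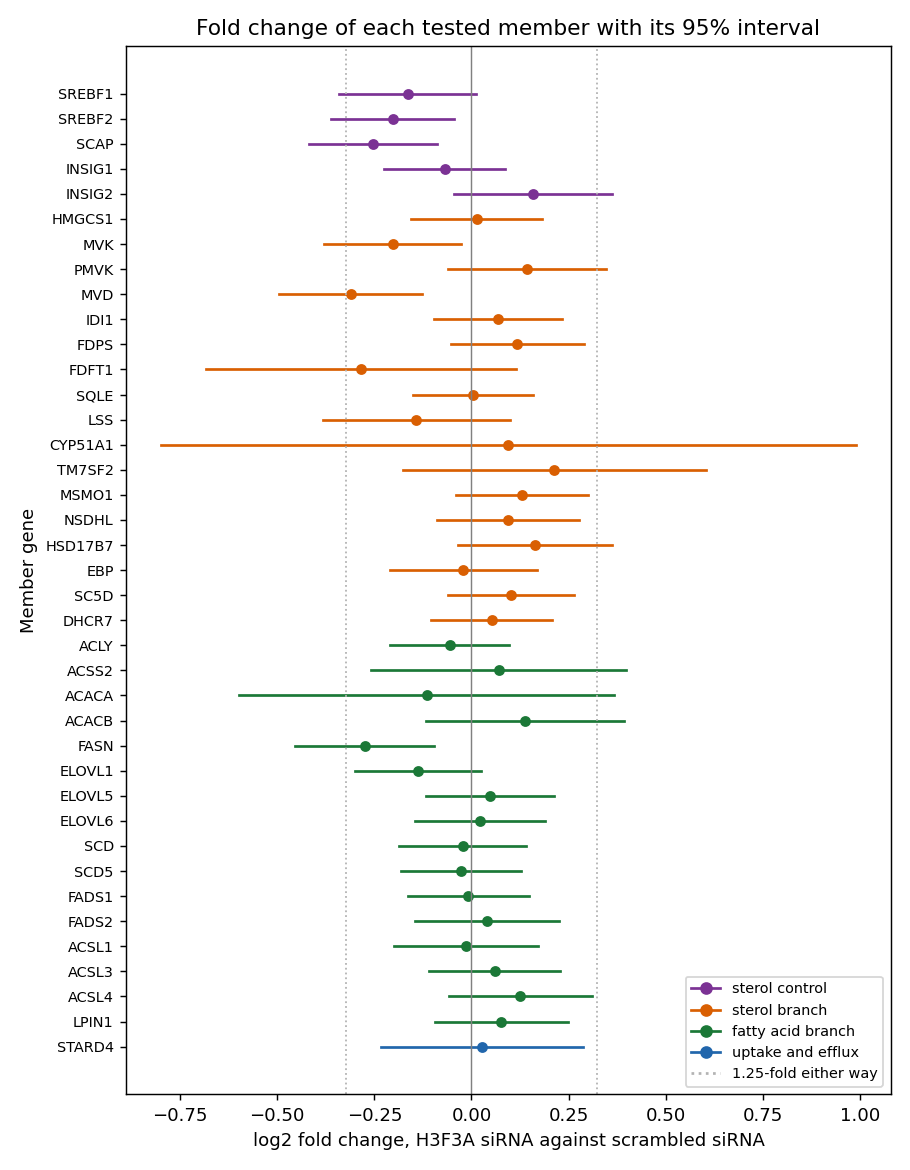
Log2 fold change (horizontal axis) of the 39 tested members with its 95% interval, coloured by branch, with dotted lines at 1.25-fold. The intervals of SREBF2, SCAP, MVK, MVD and FASN lie below 0, and no interval lies wholly above 0.

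Expressed per length of transcript, the fatty acid branch held the most abundant members in the unstranded counts. The place of FDPS, of the sterol branch, in this order is uncertain, because its stranded sum was 5.22 times its unstranded count. SCD, the stearoyl-CoA desaturase, stood at 115 ± 9.5 CPM per kb in scrambled libraries (SD, n = 2), ACLY, which cleaves citrate to acetyl-CoA, at 113 ± 1 CPM per kb, and FASN, the fatty acid synthase, at 95.2 ± 13.2 CPM per kb. SCD and ACLY, neighbours in this order, differed by less than the SD of SCD. The elongase ELOVL1 came next with 65.0 ± 5.25 CPM per kb, and then SREBF2, the highest of the control genes, with 55.9 ± 3.7 CPM per kb. The squalene epoxidase SQLE stood at 43.3 ± 1.56 CPM per kb, the highest of the sterol branch in the unstranded counts, in which FDPS may be undercounted as described below. At the other end ABCG1 stood at 0.0638 CPM per kb and ABCA1 at 0.00487 CPM per kb. The transcript lengths come from GENCODE release 29 and may differ from the annotation behind the counts.

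**Figure D2:**
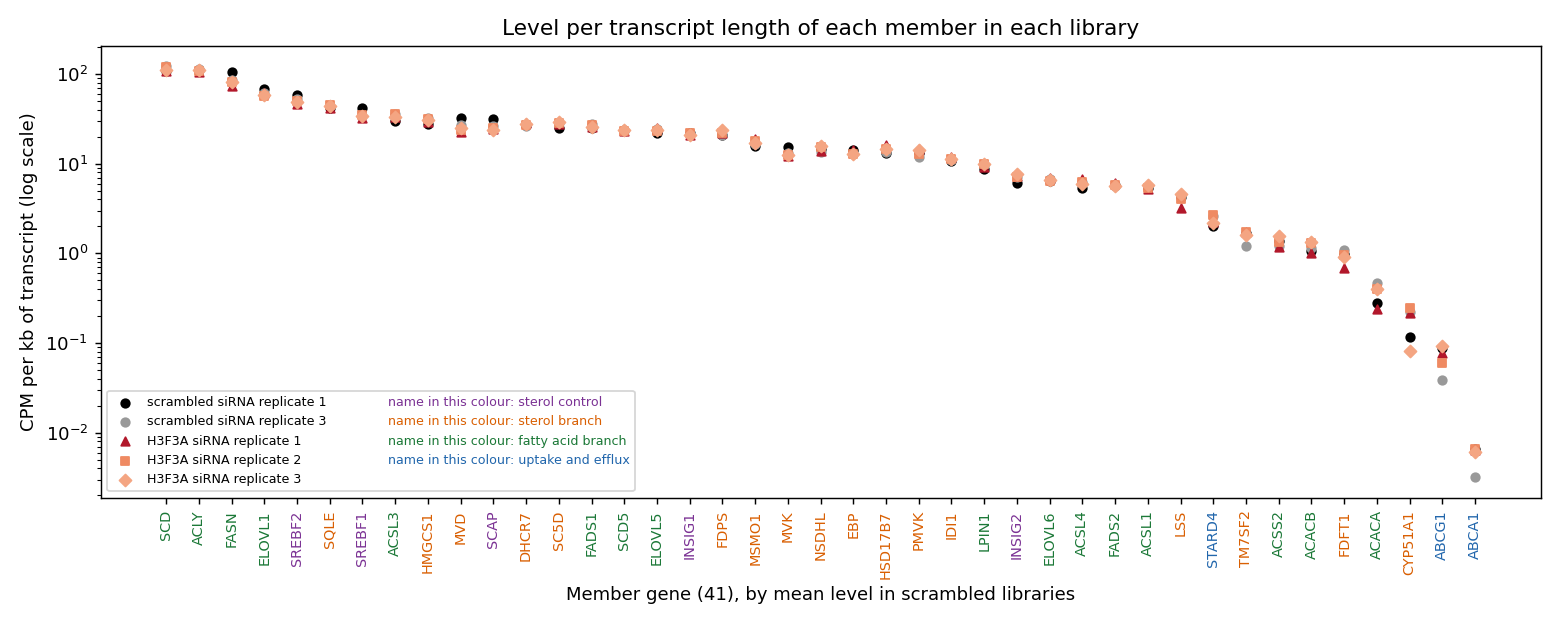
CPM per kb of transcript (log scale) of all 41 members in each of the 5 libraries, in order of the mean of the scrambled libraries and with names coloured by branch. In these unstranded counts SCD, ACLY and FASN stand highest and ABCA1 lowest, and the place of FDPS is uncertain. The 5 libraries lie close together for most members.

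Among the genes that control sterol synthesis, SREBF2 and SCAP stood lower after H3F3A siRNA without being called. SREBF2, the SREBP of cholesterol synthesis, stood at 314 and 286 CPM in the scrambled libraries and at 251, 272 and 259 CPM after H3F3A siRNA. The groups did not overlap, with scrambled replicate 1 highest and H3F3A siRNA replicate 1 lowest. The log2 fold change was -0.20 (SE 0.0762, adjusted p = 0.16). SCAP, the escort of the SREBP proteins, stood at 138 and 117 CPM against 107, 109 and 105 CPM, again with scrambled replicate 1 highest and without overlap (log2 fold change -0.25, SE 0.0796, adjusted p = 0.0864). SREBF1, whose products mainly drive fatty acid synthesis, stood at 178 and 143 CPM against 137, 149 and 144 CPM. Here the groups overlapped, because scrambled replicate 3 lay below 2 of the 3 H3F3A siRNA libraries (log2 fold change -0.16, adjusted p = 0.34). For SREBF1 the difference was not kept: the log2 fold change was -0.00 without scrambled replicate 1 and 0.04 with GC correction.

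The INSIG genes had values on either side of 0. INSIG1 stood at 66.8 and 67.0 CPM against 63.0, 65.7 and 62.5 CPM, so the groups did not overlap, but the gap was small (log2 fold change -0.07, 95% interval -0.22 to 0.09, adjusted p = 0.695). That interval lies within 1.25-fold of no change. INSIG2, its relative, stood at 15.6 and 18.4 CPM against 18.7, 18.3 and 19.9 CPM, with scrambled replicate 1 lowest (log2 fold change 0.16, adjusted p = 0.443, and 0.04 without that library).

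The start regions of 37 of the 41 members were found in the RefSeq promoter table (GRCh38.p14, 250 bases before to 50 after the start), with 55 windows because 12 of them have several starts. FASN, FDFT1, SQLE and ABCG1 were not matched. A CCAAT box (CCAAT, read on both strands), the element of the SREBP partner NF-Y, was present at 1 start or more in 13 of 15 matched genes of the sterol branch and in 11 of 15 of the fatty acid branch. It was present in 2 of 5 control genes and in 1 of 2 matched genes of transport and efflux. Of all 27305 genes with such a window, 39.7% held it. Counted by window, 31 of 55 (56.4%) held it, beside 34.6% of all 35116 windows of this length in the table, which include those of noncoding genes. By branch, it was in 75% of sterol windows, 48.1% of fatty acid windows and 33.3% of control gene windows. The sterol regulatory element core TCACNCCAC was found on either strand in 2 windows (3.64%), of SREBF2 and of 1 of the 5 starts of ACSL1, and in 1.13% of all windows. The E-box CACGTG was found in 7 windows (12.7%), of 6 members, and in 7.26% of all windows. The promoter of SREBF2 is shown because it holds both the sterol element and a CCAAT box. Those of MVD, which stood lower after H3F3A siRNA, and HMGCS1, which did not, are shown because both hold CCAAT boxes and neither holds the sterol element core or the E-box. They lie at chr22:41832855-41833154 (plus strand) for SREBF2, chr16:88663042-88663341 (minus strand) for MVD and chr5:43313363-43313662 (minus strand) for HMGCS1, 1 of its 2 starts, and are written 5′ to 3′ along the gene, with CCAAT boxes on either strand and the sterol element in capitals.
SREBF2: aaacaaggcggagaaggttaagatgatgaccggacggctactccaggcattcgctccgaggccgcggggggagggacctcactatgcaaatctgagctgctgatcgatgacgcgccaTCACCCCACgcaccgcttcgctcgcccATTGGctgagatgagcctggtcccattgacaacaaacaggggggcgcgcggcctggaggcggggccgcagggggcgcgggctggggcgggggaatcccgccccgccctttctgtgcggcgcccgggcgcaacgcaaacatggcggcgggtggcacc
MVD: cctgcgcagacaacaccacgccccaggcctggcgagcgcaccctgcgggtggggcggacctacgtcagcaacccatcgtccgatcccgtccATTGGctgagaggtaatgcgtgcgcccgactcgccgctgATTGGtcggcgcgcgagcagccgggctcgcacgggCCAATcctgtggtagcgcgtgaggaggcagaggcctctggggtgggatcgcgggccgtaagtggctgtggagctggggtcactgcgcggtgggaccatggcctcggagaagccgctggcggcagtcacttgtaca
HMGCS1: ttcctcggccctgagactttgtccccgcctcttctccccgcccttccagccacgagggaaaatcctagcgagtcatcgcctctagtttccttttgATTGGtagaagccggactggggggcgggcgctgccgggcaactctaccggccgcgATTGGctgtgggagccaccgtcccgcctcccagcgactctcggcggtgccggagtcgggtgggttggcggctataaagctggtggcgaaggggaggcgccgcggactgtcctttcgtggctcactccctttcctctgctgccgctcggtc

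SREBF2 has the sterol element at positions -133 to -125 from the start and an inverted CCAAT box at positions -106 to -102. MVD has 3 CCAAT boxes within the window and HMGCS1 has 2. A match of letters is no evidence of binding, and these libraries hold no measurement at the promoters.

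In the first steps of the sterol branch, from mevalonate to farnesyl pyrophosphate, the enzymes had values on both sides of 0. MVD, which decarboxylates mevalonate pyrophosphate, stood at 59.2 and 48.8 CPM in the scrambled libraries and at 41, 43.7 and 45.9 CPM after H3F3A siRNA. The groups did not overlap, and the 2 scrambled libraries lay farther apart than the nearest libraries of the 2 groups. The log2 fold change was -0.31 (SE 0.0882, 95% interval -0.49 to -0.13), the lowest of the 39 members. MVK, the mevalonate kinase, stood at 42.0 and 36.1 CPM against 33.1, 34.4 and 34.1 CPM (log2 fold change -0.20, adjusted p = 0.215, and -0.09 without scrambled replicate 1). MVD and MVK are named because of their values and do not stand for the branch.

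The other 4 enzymes of this stretch lay at or above 0. HMGCS1, which makes HMG-CoA and has the highest CPM of the stretch in the unstranded counts, stood at 96.9 and 115 CPM against 103, 110 and 107 CPM. The H3F3A siRNA libraries thus lay between the scrambled ones (log2 fold change 0.01, 95% interval -0.15 to 0.18, adjusted p = 0.956). PMVK, the kinase between MVK and MVD, stood at 16.8 and 15.3 CPM against 18.7, 16.4 and 18.1 CPM (log2 fold change 0.14, adjusted p = 0.493). The isomerase IDI1 stood at 36.3 and 37.3 CPM against 39.6, 38.2 and 38.0 CPM, and the farnesyl pyrophosphate synthase FDPS at 30.9 and 30.6 CPM against 32.8, 32.3 and 35.0 CPM. In both the H3F3A siRNA libraries were the higher ones without overlap, with log2 fold changes of 0.07 and 0.12 that were not called.

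From squalene to cholesterol no enzyme was called. FDFT1, the squalene synthase, stood at 2.64 and 2.90 CPM against 1.84, 2.55 and 2.43 CPM in the row of that name, lower without overlap (log2 fold change -0.28, adjusted p = 0.485), but most of its counts lie in another row, described below. SQLE, an oxygen-dependent control point of the branch, stood at 125 and 131 CPM against 124, 132 and 130 CPM (log2 fold change 0.00, 95% interval -0.15 to 0.16, adjusted p = 0.986). The lanosterol synthase LSS had 15.7 CPM in H3F3A siRNA replicate 1, below the other libraries, which ran from 19.8 to 22.6 CPM, and was not called (adjusted p = 0.574). Of the 8 enzymes that turn lanosterol into cholesterol, 7 had a log2 fold change above 0, where 51.4% of all genes did, and none was called. DHCR7, the last reductase, stood at 71.8 and 70.7 CPM against 75.7, 71.9 and 73.9 CPM, just above the scrambled libraries (log2 fold change 0.05, adjusted p = 0.782). The groups also did not overlap for the methyl sterol oxidase MSMO1, at 36.2 and 37.9 CPM against 42.6, 40.4 and 38.6 CPM, and for HSD17B7, a sterol keto-reductase, at 15.8 and 16.2 CPM against 19.1, 17.4 and 17.2 CPM. Their adjusted p-values were 0.451 and 0.411. The other enzymes from lanosterol to cholesterol overlapped between the groups. SC5D, the lathosterol desaturase, stood at 61.6 and 69.0 CPM against 68.7, 70.0 and 71.4 CPM, with scrambled replicate 1 lowest. NSDHL, a sterol dehydrogenase, and EBP, the sterol isomerase, had log2 fold changes of 0.09 and -0.02. TM7SF2, a sterol reductase, had 62 to 88 counts in a library and a log2 fold change of 0.21 (95% interval -0.18 to 0.60), so only a large change would have been detectable.

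**Figure D3:**
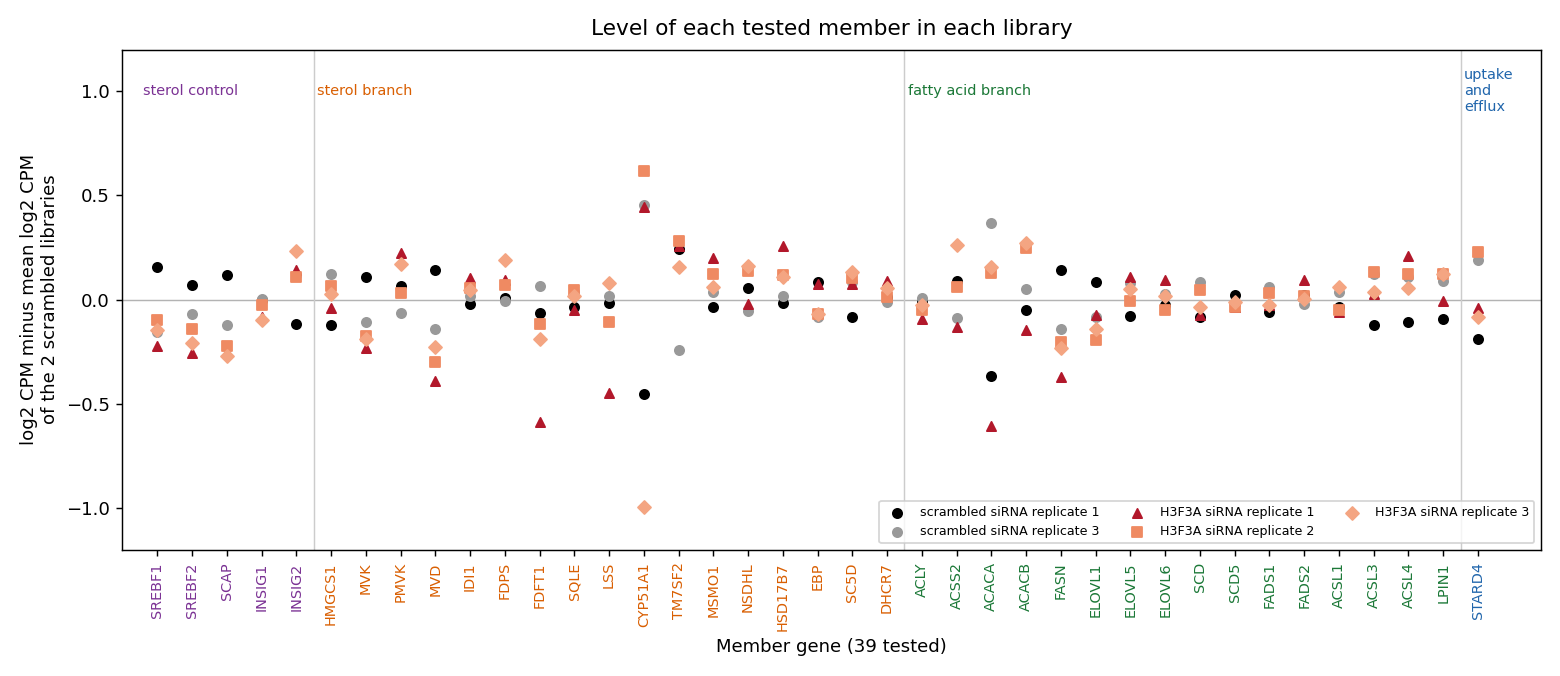
Log2 CPM of each tested member (horizontal axis) in each library, relative to the mean of the 2 scrambled libraries, with branches separated by vertical lines. For SREBF1, SREBF2, SCAP, MVK, MVD, FASN and ELOVL1 scrambled replicate 1 (black) is the highest library, and the widest scatter belongs to CYP51A1, with 8 to 23 counts in a library.

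In the fatty acid branch FASN was the only member with an unadjusted p under 0.05. It stood at 895 and 735 CPM in the scrambled libraries and at 626, 704 and 691 CPM after H3F3A siRNA. The groups did not overlap, but scrambled replicate 3 was closer to the H3F3A siRNA libraries than to scrambled replicate 1. The means were 815 ± 113 CPM (SD, n = 2) and 674 ± 41.8 CPM (SD, n = 3), a log2 fold change of -0.27 (SE 0.0863, adjusted p = 0.0864). ACLY, which supplies its acetyl-CoA upstream of the carboxylases, stood at 485 and 491 CPM against 457, 471 and 480 CPM. These levels did not overlap but were within 1.25-fold by the interval of the log2 fold change (-0.06, 95% interval -0.21 to 0.10, adjusted p = 0.754). ACSS2, which makes acetyl-CoA from acetate, and the acetyl-CoA carboxylases ACACA and ACACB had mean levels between 3.46 and 11.4 CPM and were not called. ACACA, the carboxylase that supplies malonyl-CoA for synthesis, had 82 and 139 counts in the scrambled libraries and 71, 115 and 125 after H3F3A siRNA. Both libraries numbered 1 were the lowest of their group, and the 95% interval of its log2 fold change ran from -0.60 to 0.37.

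The genes that modify and activate fatty acids had narrow intervals around 0. SCD stood at 579 and 652 CPM against 583, 635 and 599 CPM, so that the H3F3A siRNA libraries lay between the scrambled ones (log2 fold change -0.02, 95% interval -0.19 to 0.14, adjusted p = 0.92). Its relative SCD5 and the polyunsaturated desaturases FADS1 and FADS2 had log2 fold changes of -0.03, -0.01 and 0.04. All 4 desaturase intervals and all 3 of the elongases ELOVL1, ELOVL5 and ELOVL6 lay within 1.25-fold of no change. So did all 3 of the acyl-CoA synthetases ACSL1, ACSL3 and ACSL4, beside 41.04% of all genes. ELOVL1, which elongates saturated chains, stood at 112 and 99.5 CPM against 100, 92.0 and 95.5 CPM (log2 fold change -0.14, adjusted p = 0.392). ELOVL5 and ELOVL6, which elongate polyunsaturated and saturated chains, had log2 fold changes of 0.05 and 0.02. FADS1 stood at 115 and 125 CPM against 118, 122 and 117 CPM, between the scrambled libraries. ACSL3, the most abundant synthetase, stood at 170 and 201 CPM against 188, 203 and 190 CPM (log2 fold change 0.06, adjusted p = 0.765). LPIN1, a phosphatidate phosphatase of glycerolipid synthesis, stood at 49.1 and 55.8 CPM against 52.0, 56.9 and 57.0 CPM (log2 fold change 0.08, adjusted p = 0.69).

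Of the sterol transport and efflux members, ABCA1 and ABCG1 had very few counts, and STARD4 had more and may be undercounted as described below. STARD4, a cytosolic sterol carrier, stood at 9.29 and 12.1 CPM in the scrambled libraries and at 10.3, 12.4 and 10.0 CPM after H3F3A siRNA, with overlapping groups (log2 fold change 0.03, 95% interval -0.23 to 0.29, adjusted p = 0.944). ABCA1, which exports cholesterol to lipid-poor apolipoproteins, had 2 and 1 counts in the scrambled libraries and 2 counts in each H3F3A siRNA library. ABCG1, which exports it to mature lipoprotein particles, had 9 and 4 counts against 8, 6 and 10. At these counts no difference between the groups was detectable, and with 1 tested gene the group of transport and efflux genes cannot be compared with the sterol and fatty acid branches.

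Set side by side, the branches differed in where the H3F3A siRNA libraries lay. For the control genes the median member stood at 0.07 and -0.07 in the scrambled libraries, on a log2 scale relative to the scrambled mean, and at -0.22, -0.10 and -0.14 after H3F3A siRNA. For the sterol branch it stood at -0.02 and 0.02 against 0.08, 0.05 and 0.05, and for the fatty acid branch at -0.04 and 0.04 against -0.05, 0.02 and 0.03. Without scrambled replicate 1, the median log2 fold changes were -0.07 for the control genes, 0.05 for the sterol branch and -0.04 for the fatty acid branch. The median control gene was thus lowest in the H3F3A siRNA libraries, that of the sterol branch highest, and that of the fatty acid branch overlapped between the groups. The branches also differed in median GC content, at 57.9% for the control genes, 50.5% for the sterol branch and 48.9% for the fatty acid branch. Medians with GC correction are given below. The summed CPM of the fatty acid branch was 2676 and 2646 against 2412, 2564 and 2517, lower without overlap. FASN made up the largest share of this sum, with 895 and 735 CPM against 626, 704 and 691 CPM. Of the 16 members, 2 (FASN and ACLY) were lower without overlap (12.5%, against 17.1% of all genes). The fall of the sum therefore does not stand for the branch. The summed CPM of the sterol branch was 673 and 684 against 671, 686 and 691, with overlap. The 95% interval lay within 1.25-fold of no change in 1 of 5 control genes (20%). It did so in 9 of 17 genes of the sterol branch (52.94%) and 12 of 16 of the fatty acid branch (75%). Of all genes, 41.04% did. The differences between branches were not tested, since members share the same 5 libraries.

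Fold changes of members went down with GC content, as those of all genes did. Across the 39 members the correlation of the log2 fold change with the GC content of the longest coding transcript was -0.49 (Pearson) and -0.41 (Spearman), beside -0.42 and -0.53 over the 14153 tested genes with a GC value. These points share the 5 libraries and are given as a description. All 5 members with an unadjusted p under 0.05 had a GC content from 57.9% to 65.6%, where the median member had 49.1%. In 9 of the 39 members (23.1%) scrambled replicate 1 was the highest of the 5 libraries, among them these 5, and in 31.1% of all genes it was. With each library's trend over GC content removed, the log2 fold changes of MVD, FASN and SCAP were -0.09, -0.06 and -0.09, those of SREBF2 and MVK -0.11 and -0.08, and none of the 39 was called, where 1.57% of all genes were called lower and 0.479% higher. At an unadjusted p under 0.05, 1 member was then lower (INSIG1), where 7.87% of all genes were, and 5 were higher (PMVK, FDPS, TM7SF2, DHCR7 and FADS2), where 5.04% were. PMVK had the lowest adjusted p after this correction, at a log2 fold change of 0.26 (adjusted p = 0.147). The correlation with GC content over the 39 members was then 0.28 (Pearson) and 0.16 (Spearman). Over all genes it was -0.01 and -0.02. The medians became -0.09 for the control genes, 0.01 for the sterol branch and -0.04 for the fatty acid branch, so the fatty acid median changed sign.

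**Figure D4:**
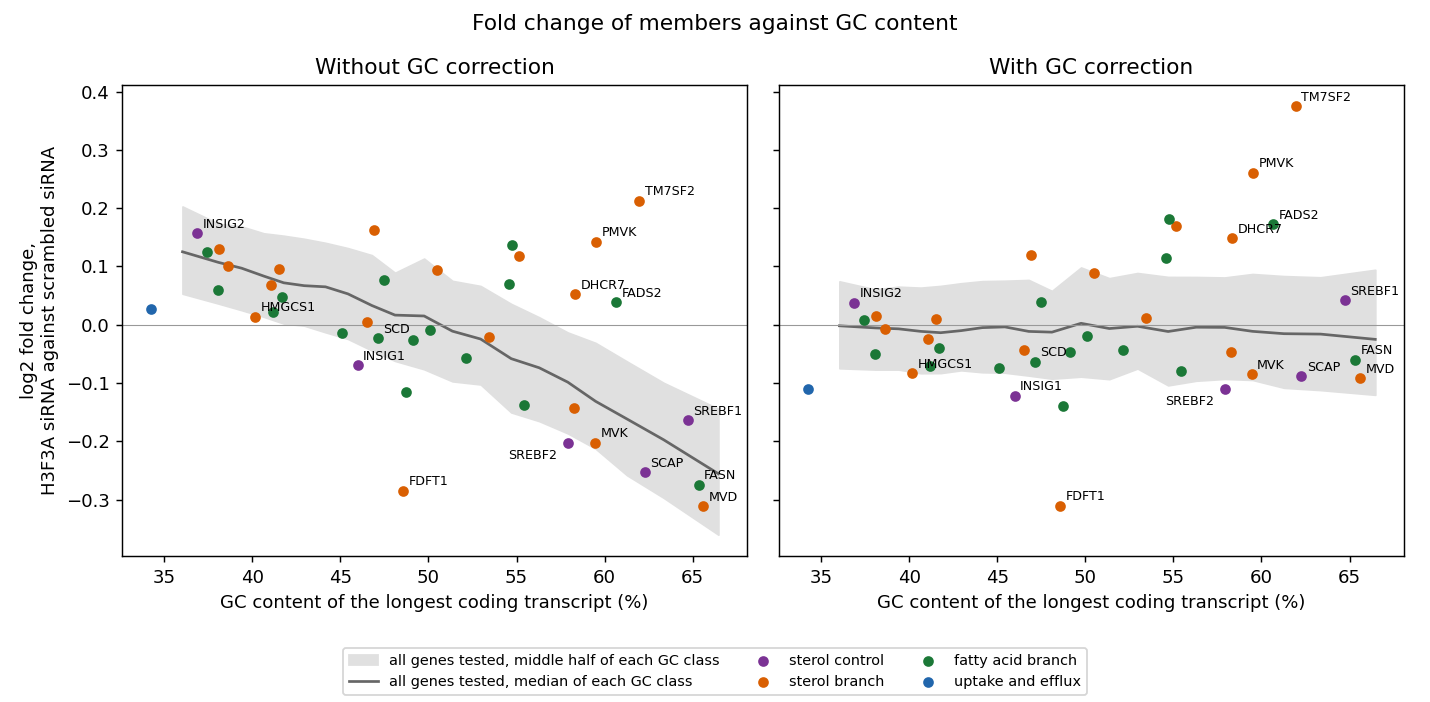
Log2 fold change against GC content of the longest coding transcript for the 39 tested members (points, coloured by branch), without (left) and with (right) correction of each library's GC trend, over the median (line) and interquartile range (band) of all genes in 20 GC classes. On the left MVD, FASN, SCAP, SREBF1, SREBF2 and MVK follow the falling line, and on the right they lie within 0.11 of 0.

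The calls also depended on which libraries were used. H3F3A siRNA replicate 1 was the lowest of the 5 libraries in 13 of the 39 members, and in 3242 of all 15859 genes. Without it no member was called, where 0.0575% of all genes were called lower and 0.0383% higher. Without scrambled replicate 1, none of the 39 members was called, where 0.501% of all genes were called lower and 0.122% higher, and none had an unadjusted p under 0.05, where 9.74% of all genes had. The log2 fold changes of MVD, FASN, SCAP and SREBF2 were -0.17, -0.13, -0.13 and -0.14. Without scrambled replicate 3, 7 members were called lower, where 10.6% of all genes were, namely SREBF1, SREBF2, SCAP, MVK, MVD, FASN and ELOVL1, and none was called higher, where 4.54% of all genes were. In that fit the log2 fold change was -0.44 for MVD (edgeR adjusted p = 0.000505) and -0.41 for FASN (0.000915). In either fit a lone scrambled library is assumed to vary like the H3F3A siRNA libraries.

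For several members the unstranded column holds fewer counts than the stranded columns together. FDPS had 4811 counts over the 5 libraries in the unstranded column but 25134 in the sum of the stranded columns, 5.22 times as many, and GENCODE places 693 of its 3718 exon bases opposite RUSC1-AS1. The stranded sum was 2.79 times the unstranded count for STARD4, 1.65 times for FADS2, 1.55 times for SREBF2 and 1.33 times for IDI1. Reads from both strands of such a locus cannot be told apart in these unstranded libraries. With the stranded sums, the log2 fold change of FDPS was 0.02, of STARD4 0.10, of FADS2 -0.03, of SREBF2 -0.16 and of IDI1 0.11, and no member was called, where 2.59% of all genes were called lower and 0.608% higher.

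FDFT1 has a numbered copy in the tables that held 4844 counts over the 5 libraries against 367 in the row of that name, so the named row held 7.04% of both. The copy stood at 35.0 and 31.1 CPM in the scrambled libraries and at 32.4, 34.1 and 30.6 CPM after H3F3A siRNA, and with the copy added the log2 fold change of FDFT1 went from -0.28 to -0.05 (adjusted p = 0.832). LSS and ACACA also have copies, with 0 and 1 counts, so their values are uncertain if reads were lost between copies, which was not tested. CYP51A1, the lanosterol demethylase, had 11 and 21 counts in the scrambled libraries and 21, 23 and 8 after H3F3A siRNA. Of its 3584 exon bases, 2844 are shared in GENCODE with the same-strand gene AC000120.2, and the part of this overlap in the low counts was not tested.

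Another 52 genes of the same pathways were examined as lists chosen by function. Of 11 genes of SREBP processing and sterol sensing, such as the proteases MBTPS1 and MBTPS2, all 11 were tested and none was called. All 11 intervals lay within 1.25-fold of no change, where 41.04% of those of all genes did. None of 6 further genes of sterol synthesis was called. Among them FAXDC2, a member of the fatty acid hydroxylase family, stood at 2.26 and 1.82 CPM against 3.15, 3.41 and 2.72 CPM, higher without overlap (log2 fold change 0.60, adjusted p = 0.092). It had the largest log2 fold change by size of the 48 related genes tested, at 0.59 with GC correction and 0.76 without scrambled replicate 1. With the stranded columns summed the value of FAXDC2 was only 0.13 (edgeR adjusted p = 0.503). Its unstranded row held 54 to 99 counts in a library. None of 12 genes of sterol uptake, storage and efflux was called. The nearest to the threshold were SCARB1, a receptor for high-density lipoprotein, at 139 and 120 CPM against 112, 107 and 104 CPM (adjusted p = 0.0689), and the transporter ABCA2 (adjusted p = 0.0796). SCARB1 was called lower in DESeq2 (adjusted p = 0.0377), and both were in edgeR without a filter on low counts (adjusted p = 0.0442 and 0.0295). Those fits called 4.41% and 2.26% of genes lower. With a replicate block ABCA2 was called without GC correction and SCARB1 with it. The log2 fold changes were -0.19 (SCARB1) and -0.10 (ABCA2) with GC correction alone, and -0.16 and -0.12 without scrambled replicate 1. Of 23 further genes of fatty acid synthesis, 19 were tested and 1 was called, lower (5.26%, beside 2.69% of all genes). FADS3, a member of the FADS desaturase family beside FADS1 and FADS2, stood at 139 and 120 CPM in the scrambled libraries and at 101, 98.7 and 105 CPM after H3F3A siRNA. It fell 1.27-fold (log2 fold change -0.35, SE 0.0785, edgeR adjusted p = 0.0162), and the groups did not overlap. Its GC content was 62.6%, and the call was lost with GC correction (log2 fold change -0.18, adjusted p = 0.0978) and without scrambled replicate 1 (log2 fold change -0.25, adjusted p = 0.149). FADS3 was also called lower in DESeq2 (adjusted p = 0.002), where 4.41% of genes were. In edgeR the call was kept without a filter on low counts (adjusted p = 0.00205), where 2.26% were called lower. It was kept with stranded columns summed (edgeR adjusted p = 0.0144), where 2.59% were. With a replicate block it was kept without and with GC correction (edgeR adjusted p = 0.0367 and 0.0183), where 3% and 4.96% were.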

How the data were processed

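The 5 libraries of poly-A RNA, 2 of scrambled siRNA and 3 of H3F3A siRNA, were grouped by sample title. Per the labels' protocols, mRNA was captured on poly-T beads before NEBNext Ultra library preparation. The submitters' processing notes name STAR 2.5, HTSeq 0.6.1, DESeq2 and hg19 without roles. The authors deposited raw counts of reads for each gene in 1 unstranded and 2 stranded columns, and the unstranded counts were used. Lines that name no gene were left out. They held 4.84% to 5.48% of reads as unmapped, 6.28% to 6.42% as multimapping, 9.17% to 10.2% outside genes and 4.45% to 4.56% as ambiguous. Rows were matched to members by exact name, and H3F3A is the row H3-3A. The members and lists were chosen with earlier results of these data known.

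The test was that of edgeR 4.0.16, run in R 4.3.3 (filterByExpr with a minimum count of 10, TMM scaling, robust quasi-likelihood fit, no covariates, Benjamini-Hochberg adjustment over 15859 genes). The common biological coefficient of variation was 6.53%. CPM values use TMM library sizes, and standard errors were derived from the F statistics. DESeq2 1.42.0 was an alternative. GC content and length came from GENCODE release 29 transcripts (89.2% of tested genes matched), and each library's GC trend was removed as a spline with 5 degrees of freedom. Every member called would have been named with all values, as were the most abundant member of each role, both SREBP and INSIG genes, and the transport genes. Others were named after their values were seen. On simulated counts for this comparison, with 15796 genes tested, the test recovered 52% of the changes of 0.4 and 99% of the changes of 1 on the log2 scale. The simulation gave all genes the same dispersion and no library a GC trend, and placed no change in low-count genes. These shares may therefore not hold in the real counts. The alternatives were RLE and upper-quartile scaling, no filter, a replicate block, GC correction and leaving out each library, and, chosen after seeing the data, summed stranded columns and added numbered copies (4791 rows, 0.09% to 0.0963% of counts).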

Additional observations from a re-analysis of the deposited data

How the results depend on the processing

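Across all genes, 507 were called, and 792 were without a filter on low counts, 325 with GC correction, 1153 with GC correction and a replicate block together, 86 with GC correction and scrambled replicate 1 left out, and from 15 (without H3F3A siRNA replicate 1) to 2481 (without scrambled replicate 3) with 1 library left out. Members called lower, 0 in the fit reported, numbered 1 with RLE normalization (MVD), 2 in DESeq2 and 2 without a filter on low counts (MVD and FASN), 1 with a replicate block (FASN, where 3% of all genes were lower), 1 with GC correction and a replicate block (SREBF2, where 4.96% were), and 0 to 7 with 1 library left out. Members called higher, also 0, numbered 2 with GC correction and a replicate block (PMVK and DHCR7, where 2.31% of all genes were) and 0 to 0 with 1 library left out. The replicate numbers 1 and 3 occur in both groups, but the labels do not say that a number marks a shared culture. Deviations from the group means correlated at 0.112 for the libraries numbered 1 and at 0.0487 for those numbered 3. They correlated at 0.068 for scrambled replicate 3 and H3F3A siRNA replicate 2, which share no number. The deviations of the 2 scrambled libraries mirror each other, so these values cannot decide whether a number marks a pair. The blocked fits are therefore given here as alternatives. The median log2 fold change of the control genes was -0.0822 with GC correction and scrambled replicate 1 left out, and -0.269 to -0.0744 with 1 library left out. That of the sterol branch was 0.0916 with upper-quartile scaling, 0.0094 with GC correction, -0.00512 with GC correction and a replicate block, 0.00813 with GC correction and scrambled replicate 1 left out, and 0.0407 to 0.0712 with 1 library left out. That of the fatty acid branch was -0.0448 with GC correction, -0.0533 with scrambled replicate 1 left out as well, and -0.043 to 0.0499 with 1 library left out. Under GC correction 10 of the 39 log2 fold changes changed sign and 19 moved by more than its standard error. Summing stranded columns and adding numbered copies were chosen after the data were seen. DESeq2 gave no adjusted p for FDFT1, CYP51A1, TM7SF2, ACSS2 and ACACA. With 2 scrambled libraries, 1 of which carries a GC trend, changes under about 1.25-fold could not be told from no change in most members. The cause of these differences between settings was not tested.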
